A study of Bos taurus with 28 samples.

Results

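Estradiol treatment of ovariectomized cows was tested as a main effect in the liver: the 14 arrays of cows that carried estradiol were set against the 14 arrays of cows that did not, with progesterone as an additive term, so that each arm held cows with and without progesterone. The 14 arrays with estradiol were 7 of E2T (an ear implant that releases estradiol) and 7 of E2P4T (the implant together with vaginal progesterone devices). The 14 arrays without estradiol were 7 of CO (no hormone) and 7 of P4T (the progesterone devices alone). Together both arms hold all 28 arrays of the series, and every probe set other than an Affymetrix control was tested, 24016 in number. All cows were dry, non-lactating Holstein females without ovaries, and the liver was sampled after 14 days of treatment. Ages are not given in the sources used here. Ovariectomy removes the main source of both hormones, so CO stands for a hormone-depleted cow and not for a cow in her estrous cycle. The P4T cows of the same arm had progesterone from the devices. According to the methods the cows passed through the treatments in turn in a Latin square, but the labels give neither cow nor period, so arrays of different groups may come from 1 cow and the p-values measure the spread between arrays as they stand.

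Estradiol acts mainly through nuclear estrogen receptors, of which ESR1 is the form usually found in hepatocytes, and through a membrane receptor. In the liver of other mammals estrogens are known to alter the output of secreted proteins such as angiotensinogen, the growth hormone and IGF axis, bile acid synthesis and lipid metabolism. A direct target gene carries a receptor bound at its regulatory DNA, whereas many other responses follow indirectly through pituitary hormones or metabolism.

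No probe set passed an adjusted p under 0.05 for estradiol (0% of 24016, smallest adjusted p = 0.957, limma with the adjustment of Benjamini and Hochberg). At an unadjusted p under 0.05 there were 1041 probe sets, 4.33% of those tested, of which 300 were higher and 741 lower with estradiol, whereas an even spread of p would place 1201 there. A stricter threshold, an unadjusted p under 0.01 of the main effect with the higher arm at least 25% above the lower, held 157 probe sets (0.654%), 42 higher and 115 lower, against 240 from an even spread of p. It differs from the criteria of the study, which were set on a test over the 4 groups and on single contrasts. Values called higher or lower from here on are directions of the fitted difference, and none of them passed the adjusted test. The difference is given throughout as log2 of the arrays with estradiol over the arrays without, after the fit.

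**Figure D1:**
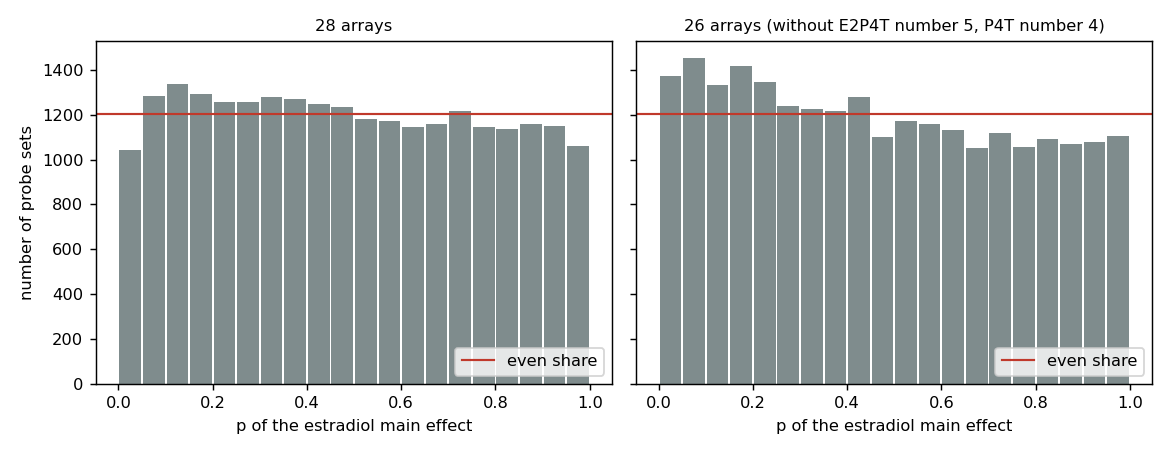
Probe sets counted (vertical axis) per category of the unadjusted p of the estradiol main effect (horizontal axis, 20 categories of equal width), for all 28 arrays and for 26 arrays without E2P4T number 5 and P4T number 4. The horizontal line marks the even share of 1201, and the first category holds 1041 probe sets with 28 arrays and 1371 with 26.

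The liver identity of the arrays was checked with 21 genes that hepatocytes express strongly, among them albumin (ALB) and apolipoproteins. The mean of their log2 signals was 9.92 on E2P4T number 5 and lay between 15.18 and 15.79 on every other array. On E2P4T number 5 the log2 signal of ALB was 12.06 and APOB was 5.00, and the mean of 14 kidney nephron genes was 10.49, against 5.70 to 8.0 on the other arrays. The hybridisation spikes, control RNAs that are added to each labelled sample, were highest on E2P4T number 5 (18.44) and on P4T number 4 (17.49). Arrays correlated with the others at a median of 0.659 for E2P4T number 5, 0.761 for P4T number 4 and at least 0.827 for the other 26. One of these arrays lies in each arm, so each result below was also computed on the 26 arrays without both. The study left out an outlying array of P4T and another of E2P4T, and the labels do not say whether these are still among the arrays used here. It also analysed more CO arrays and more E2T arrays than the 7 of each that the series holds.

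**Figure D2:**
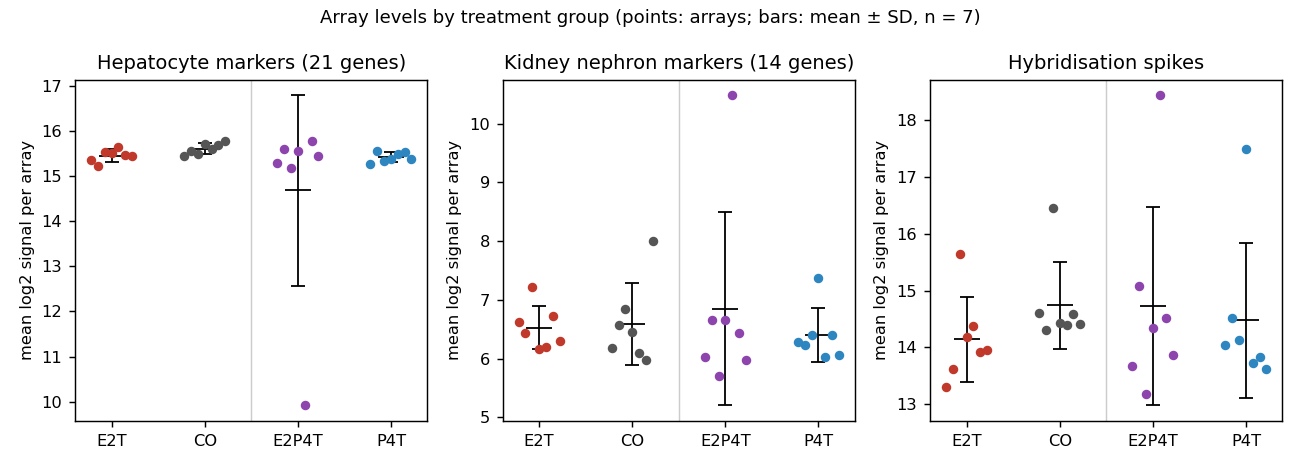
Mean log2 signal (vertical axes) of the hepatocyte markers, the kidney nephron markers and the hybridisation spikes on each array, and the mean ± SD of each group of 7 arrays as bars. E2P4T number 5 lies at 9.92 for hepatocyte markers and at 10.49 for nephron markers, and the highest spike signals are 18.44 on E2P4T number 5 and 17.49 on P4T number 4.

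With 26 arrays there was again no probe set with an adjusted p under 0.05 (0%), and the smallest adjusted p was 0.103. An unadjusted p under 0.05 was found for 1371 probe sets (5.71%), 329 higher and 1042 lower, and 252 probe sets (1.05%) passed p under 0.01 with the fold threshold, 48 higher and 204 lower. The sets with and without the 2 arrays shared 104 probe sets, which were 66.2% of the 157 and 41.3% of the 252. The median standard error over all probe sets was 0.35 with 28 arrays and 0.30 with 26. The probe set with the smallest p over 26 arrays, which has no gene symbol and was singled out after its values were seen, differed by 1.04 ± 0.19 (SE). Over 28 arrays its difference was 0.61 ± 0.34, with 1.28 in E2T over CO and -0.07 in E2P4T over P4T.

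The balance of directions differed between bright and dim genes. Among 9155 genes with a symbol, with the probe set of highest mean standing for each, 138 (1.51%) were higher and 275 (3%) were lower with estradiol at p under 0.05, and with 26 arrays 126 (1.38%) were higher and 353 (3.86%) lower. In the upper part of these genes by signal the directions were even, with 89 higher and 92 lower. In the lower part 49 were higher and 183 lower, and 61.9% of all its genes were on the lower side. The median log2 signal of the arrays ranged from 7.48 to 9.0 (median 7.56) with estradiol and from 7.55 to 8.78 (median 7.74) without it. This is the direction of the dim probe sets. The median of an array is computed from the same probe sets, so it is no separate observation. After quantile normalization, which gives all arrays the same distribution, 52.6% of the probe sets past p under 0.01 and the fold threshold were lower, against 73.2% before it, and centring each array on its median gave 60.8%. Over all probe sets the median difference was -0.07 as deposited, 0.00 after quantile normalization and 0.04 after median centring. Of the 9155 genes, whatever their p, 44.9% were higher with 28 arrays and 43% with 26. List counts below that lie near this share are not read as a shift of the list.

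Estradiol could be read separately in cows without progesterone (E2T over CO) and in cows with it (E2P4T over P4T), and these comparisons share no array. In E2T over CO, 1452 probe sets had an unadjusted p under 0.05, 298 higher and 1154 lower, against 1201 from an even spread. In E2P4T over P4T there were 545, 311 higher and 234 lower. With 26 arrays, which changes no array of E2T or CO but lowers the spread that all groups share, E2T over CO had 2437 (603 higher, 1834 lower) and E2P4T over P4T had 458. An unadjusted p under 0.01 was then found for 602 probe sets in E2T over CO and 83 in E2P4T over P4T, and no adjusted p was under 0.05 (smallest 0.281 in E2T over CO, limma). The direction was the same in both for 52.4% of the probe sets with 28 arrays and 50.8% with 26, and Pearson's r over probe sets, which are not independent replicates, was -0.01 and 0.00. Of the 247 probe sets with p under 0.01 in E2T over CO, 51.8% had the same direction in E2P4T over P4T. Of the 64 with p under 0.01 in E2P4T over P4T, 53.1% had it in E2T over CO. A p under 0.05 in both was found for 46 of 24016 probe sets. The direction was the same for 25 of the 46, a share near the 52.4% over all probe sets. Those of AK4, ANK3, SLC25A21 and STEEP1 (higher) and JUNB (lower) were among the 25. The test of the difference between both comparisons, the interaction of the hormones, gave no probe set with an adjusted p under 0.05. The smallest was 0.999 with 28 arrays and 0.0917 with 26 (limma). Over 28 arrays 872 had an unadjusted p under 0.05 and 134 a p under 0.01, against 1201 and 240 from an even spread. Of those 134, 117 had the more positive estradiol difference in the presence of progesterone, as had 60.8% of all probe sets.

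**Figure D3:**
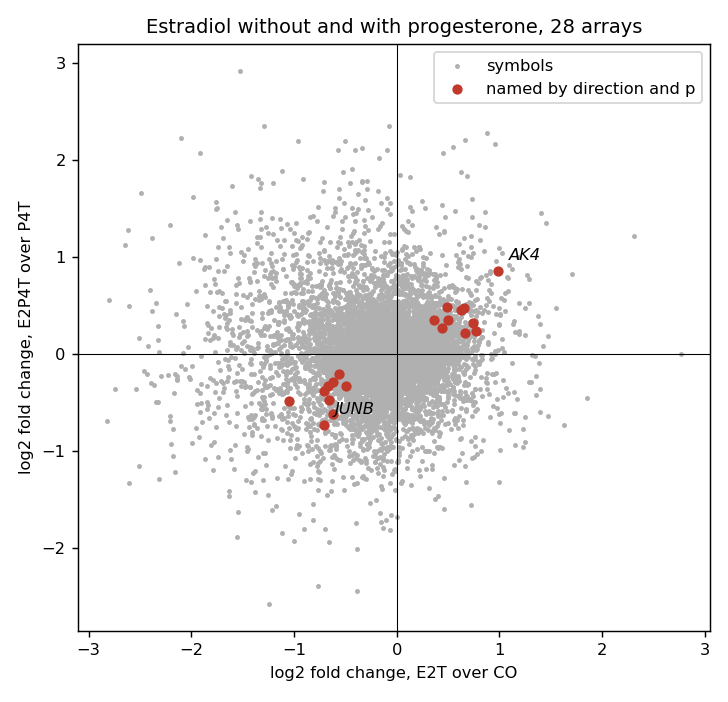
Log2 fold change of E2T over CO (horizontal axis) against E2P4T over P4T (vertical axis) for 9155 genes with a symbol, 1 point per gene, over 28 arrays. The 19 red points are the genes named for their p and for the same sign in both comparisons, so their place in the upper right and lower left was set by the choice; over all these genes 55% had the same sign.

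The genes described first were taken by rule from those of smallest p with a signal in the upper part of the genes, the same sign in both comparisons and p under 0.05 with 26 arrays. The rule therefore fixed that they point the same way with and without progesterone, and 12 higher and 9 lower genes met it. The adjusted p of each was 0.957 with 28 arrays. No gene named here, and no probe set on the array, separated the 14 arrays with estradiol from the 14 without.

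AK4, an adenylate kinase of the mitochondrial matrix that exchanges phosphate between nucleotides, had log2 signals from 9.55 to 12.30 (median 11.14) with estradiol and from 8.95 to 11.15 (median 10.29) without it. The difference was 0.92 ± 0.25 (SE, p = 0.000716, n = 14 per arm), a fold of 1.89, and 13 of 14 arrays with estradiol lay above the mean of their own comparison group. The spread among E2T arrays (SD 1.06) was wider than among E2P4T arrays (SD 0.34), and arrays of both arms overlapped. ANK3 codes for ankyrin-G, which ties membrane proteins to the cytoskeleton. Its signals were 12.27 to 13.54 (median 12.86) with estradiol and 11.48 to 12.92 (median 12.32) without, a difference of 0.56 ± 0.16 (p = 0.000994, n = 14). TDP2, a phosphodiesterase that frees DNA ends from trapped topoisomerase, ranged from 10.10 to 11.42 (median 10.94) with estradiol and from 9.35 to 10.88 (median 10.29) without, a difference of 0.54 ± 0.16. In TDP2 the CO arrays were the lowest, with a mean of 10.13 ± 0.50 (SD, n = 7), and the P4T arrays averaged 10.44 ± 0.36.

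The other genes on the higher side belonged to several functions. SLC25A21, the mitochondrial carrier of oxodicarboxylates, differed by 0.49 ± 0.16, with 0.49 in E2T over CO and 0.49 in E2P4T over P4T. STEEP1, which helps the innate immune adaptor STING leave the endoplasmic reticulum, differed by 0.35 ± 0.12, with 0.36 in E2T over CO and 0.35 in E2P4T over P4T. ATP2A2, the calcium pump of the endoplasmic reticulum, differed by 0.43 ± 0.15, with 0.14 ± 0.13, 0.55 ± 0.48 and -0.79 ± 0.63 at dimmer probe sets. ATP6V1A, the catalytic subunit of the proton pump of lysosomes, differed by 0.35 ± 0.13. The other 3 probe sets of ATP6V1A had -0.44, -1.15 and 0.86 at lower signals. CLDN12, a claudin of tight junctions, differed by 0.44 ± 0.16, PPIA, the cyclophilin that isomerises prolyl bonds, by 0.53 ± 0.19, and SH3BGRL2 by 0.50 ± 0.15. For SH3BGRL2, CLDN12 and PPIA most of the difference lay in cows without progesterone, with 0.77, 0.67 and 0.74 in E2T over CO and 0.23, 0.21 and 0.32 in E2P4T over P4T, although the interaction did not pass (adjusted p = 0.999 for each, limma).

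JUNB, a subunit of the transcription factor AP-1 that responds early to growth factors and cytokines, had the smallest p of the genes taken on the lower side. Its log2 signals were 8.40 to 10.09 (median 9.34) with estradiol and 9.20 to 11 (median 9.96) without. The difference was -0.72 ± 0.20 (p = 0.000926, n = 14), 1.64-fold lower, and it was close to equal in E2T over CO (-0.71) and E2P4T over P4T (-0.73). HAPLN3, a link protein that joins hyaluronan to proteoglycans in the matrix, had 8.63 to 11.10 (median 9.40) with estradiol and 9.23 to 11.54 (median 10.05) without, a difference of -0.76 ± 0.24. With 26 arrays HAPLN3 differed by -0.87 (p = 0.000373, n = 13). With 28 arrays its difference was -1.05 in E2T over CO and -0.48 in E2P4T over P4T. CARS2, the cysteinyl-tRNA synthetase of mitochondria, had 9.46 to 11.62 (median 10.80) with estradiol and 10.46 to 12.14 (median 11.32) without, a difference of -0.56 ± 0.19, and its lowest array was E2P4T number 5.

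**Figure D4:**
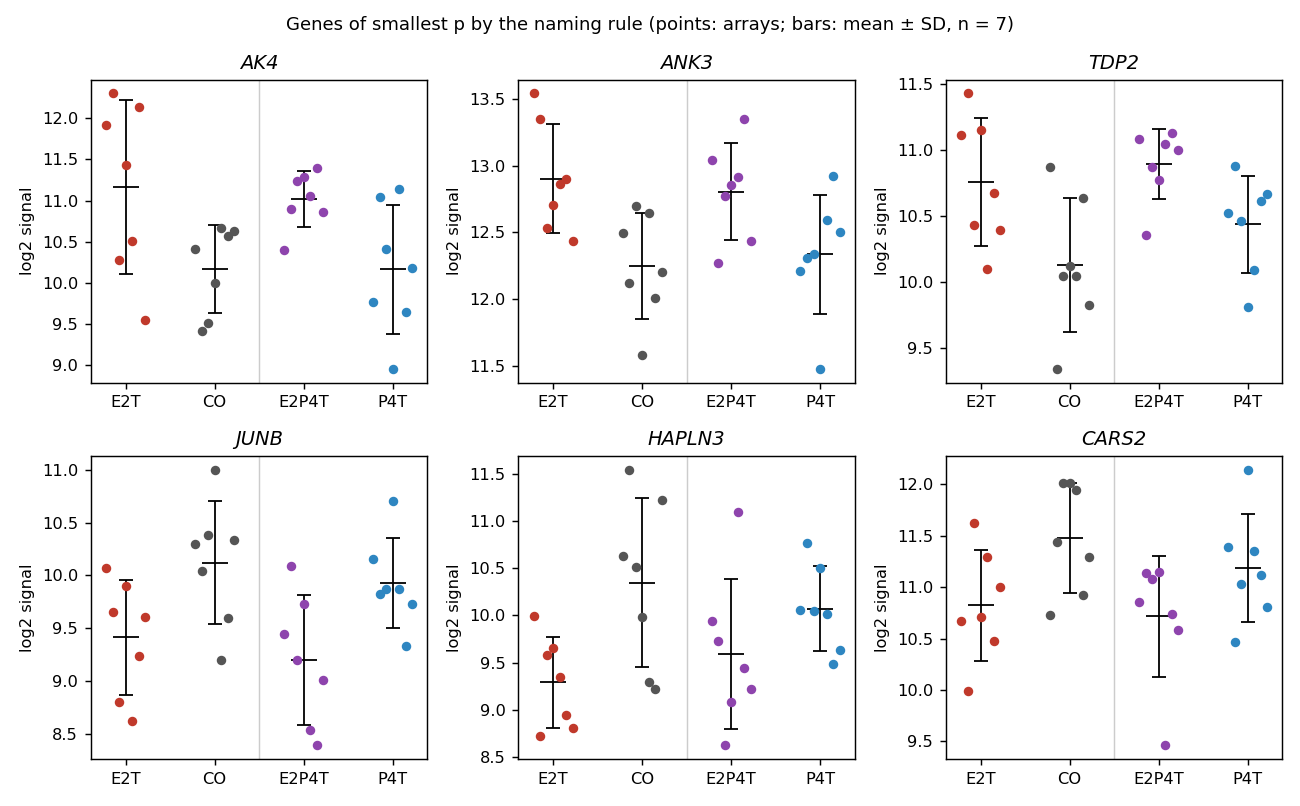
Log2 signal (vertical axes) of AK4, ANK3 and TDP2 (upper row) and JUNB, HAPLN3 and CARS2 (lower row) on each array by treatment group (horizontal axes), and the mean ± SD of each group of 7 arrays as bars. In each panel arrays with estradiol overlap arrays without it, and the main effects are 0.92, 0.56, 0.54, -0.72, -0.76 and -0.56.

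Among the remaining genes on the lower side, UBA7, the enzyme that activates the interferon-induced modifier ISG15, differed by -0.50 ± 0.18. PHF1, a partner of the Polycomb complex that methylates histone H3, differed by -0.41 ± 0.15, with -0.78 ± 0.49 and 0.25 ± 0.52 at dimmer probe sets. VPS26B, a subunit of the retromer that returns receptors from endosomes, differed by -0.38 ± 0.14. ARHGEF19 differed by -0.62 ± 0.22, with -0.62 and -0.61 in E2T over CO and E2P4T over P4T. SH3D21 differed by -0.55 ± 0.19 and PRRC2A by -0.45 ± 0.16, and without the 2 arrays by -0.39 and -0.53.

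Receptors and classical hepatic targets of estrogens were described whatever their values, and at the brightest probe set of each none had an unadjusted p under 0.05 with 28 or with 26 arrays. ESR1 had a low signal, with 2.14 to 8.59 (median 4.76) with estradiol and 3.09 to 6.95 (median 4.91) without, a difference of -0.23 ± 0.58 (p = 0.693, n = 14) whose 95% interval ran from -1.40 to 0.94. ESR2, the other nuclear estrogen receptor, differed by -0.12 ± 0.60 and PGR, the progesterone receptor that estrogen induces in the reproductive tract, by -0.48 ± 0.45. A change of the size seen for AK4 would lie within the interval of ESR1. All 7 measured receptors and coregulators were on the lower side (median -0.13), 6 of 7 with 26 arrays (median -0.04), and no member had p under 0.05. The other members of smallest p were the corepressor NCOR1 (-0.13), the hepatocyte nuclear factor HNF4A (-0.17) and the pioneer factor FOXA3 (-0.17, and 0.20 with 26 arrays). The membrane estrogen receptor GPER1 was not analysed here.

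AGT, the precursor of angiotensin, had log2 signals of 9.30 to 14.72 (median 14.45) with estradiol and 13.37 to 14.96 (median 14.39) without. Its difference of -0.30 ± 0.36 rested on E2P4T number 5, the array at 9.30. With 26 arrays it was 0.03. CYP7A1, the rate-limiting enzyme of bile acid synthesis, had 9.23 to 14.12 (median 13.19) with estradiol and 12 to 14.51 (median 12.94) without, a difference of -0.20 ± 0.35, and 0.08 with 26 arrays. SULT1E1, the sulfotransferase that inactivates estrogens, had 5.83 to 10.32 (median 8.16) with estradiol and 6.77 to 9.77 (median 8.06) without, a difference of 0.13 ± 0.38. Its differences were 0.91 in E2T over CO and -0.65 in E2P4T over P4T (standard error 0.52), and the interaction had an adjusted p = 0.999 (limma).

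In the growth hormone and IGF axis, through which the pituitary drives hepatic growth signals, 12 of 18 measured genes were lower (median -0.15). With 26 arrays 11 of 18 were lower (median -0.02). Over all genes 5046 of 9155 were lower, and 5218 with 26 arrays. GHR, the growth hormone receptor, had 4.64 to 10.18 (median 9.63) with estradiol and 6.90 to 10.11 (median 9.51) without, a difference of -0.06 ± 0.42. With 26 arrays it was 0.27, and 10 further probe sets with this symbol, at mean log2 signals of 4.07 to 6.42, gave differences from -1.84 to 0.15. Of these dim probe sets 3 were lower with an unadjusted p under 0.05, at -1.84, -1.49 and -1.41 (p = 0.00508, 0.0111 and 0.0269, n = 14). IGF1, the hormone that the liver secretes in answer to growth hormone, had 8.57 to 10.83 (median 9.54) with estradiol and 9.16 to 10.59 (median 9.55) without. The difference was -0.08 ± 0.19 with a 95% interval of -0.47 to 0.31. Dimmer probe sets of IGF1 gave 0.29 ± 0.24, 0.16 ± 0.49 and 0.24 ± 0.30. IGFBP2, a circulating carrier of IGFs, had 10.11 to 12.98 (median 11.74) with estradiol and 9.80 to 13.62 (median 12.61) without. Its difference of -0.61 ± 0.31 (p = 0.0591, n = 14) was -0.78 with 26 arrays (p = 0.00455, n = 13). It lay at -1.13 in E2T over CO and -0.09 in E2P4T over P4T (adjusted p of the interaction 0.999, limma). IGFBP6, another IGF carrier, had -0.40 ± 0.20 and STAT5B, the factor that carries the growth hormone signal into the nucleus, -0.34 ± 0.21. Not all carriers pointed the same way. Beyond the named genes, IGFBP3 had 0.32 (p = 0.0239, n = 13) and IGFBP5 -1.29 (p = 0.0489) with 26 arrays (limma). Of the 18 genes 1 was then higher and 2 lower at p under 0.05, against 1.38% higher and 3.86% lower over all genes.

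Of 18 genes that estrogen induces in reproductive tissue, 9 were higher and 9 lower (median -0.04, against -0.03 over all genes). SIAH2, a ubiquitin ligase, differed by 0.32 ± 0.14 (p = 0.0251, n = 14) and was above the mean of its own comparison group on 13 of 14 arrays. The other probe set of SIAH2, at a mean log2 signal of 9.55, gave -0.09 ± 0.15. RARA, the retinoic acid receptor alpha, differed by -0.45 ± 0.22 (p = 0.0429, n = 14), with -0.21 ± 0.15 at a dimmer probe set, and AREG, a ligand of the EGF receptor, by 1.26 ± 0.69 at a low signal. With 26 arrays the p of SIAH2 and RARA were 0.0634 and 0.112. The progesterone receptors and binders had 3 measured members, 2 of them higher, PGRMC1 (0.13 ± 0.30) and the glucocorticoid receptor NR3C1 (0.10 ± 0.14).

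In lipid synthesis 3 genes had an unadjusted p under 0.05 with 28 and with 26 arrays, 12.5% of the list against 3% lower over all genes, and they were named for their p. Of 24 genes of fatty acid and triglyceride synthesis, 16 were lower and 8 higher (median -0.15), and with 26 arrays 15 were lower (median -0.15). FASN, the fatty acid synthase, had 9.27 to 11.67 (median 10.69) with estradiol and 9.83 to 11.98 (median 11.32) without, a difference of -0.59 ± 0.24 (p = 0.0172, n = 14, and 0.00774 with 26 arrays). The E2T and E2P4T arrays averaged 10.61 ± 0.72 and 10.60 ± 0.79, against 11.25 ± 0.43 in CO and 11.15 ± 0.77 in P4T (SD, n = 7 each), so the difference was smaller than the SD within 3 of the 4 groups. SREBF1, the transcription factor that switches on lipogenic genes, had 10.47 to 12.31 (median 11.90) with estradiol and 11.56 to 12.59 (median 12.29) without. It differed by -0.38 ± 0.16 (p = 0.0267, n = 14), with -0.60 in E2T over CO and -0.16 in E2P4T over P4T. A further probe set of SREBF1 at a log2 signal of 10.27 gave -0.41 ± 0.19. PNPLA2, which breaks down triglycerides rather than making them, differed by -0.57 ± 0.22 (p = 0.0153, n = 14). After median centring the p of FASN was 0.0512 and that of SREBF1 was 0.172.

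Of 28 genes of cholesterol synthesis and lipoprotein handling, 22 were lower and 6 higher (median -0.14). PMVK and MVD, enzymes of the mevalonate pathway, differed by -0.40 ± 0.16 (p = 0.0179, n = 14) and -0.31 ± 0.15 (p = 0.05). INSIG1, which holds the sterol sensor back in the endoplasmic reticulum, differed by -0.67 ± 0.28 (p = 0.0244, n = 14). With 26 arrays 16 of 28 were lower (median -0.01). In bile acid synthesis and transport 15 of 19 genes were lower (median -0.09), and 7 of 19 with 26 arrays (median 0.04). NR5A2, a nuclear receptor that acts on CYP7A1, had -0.98 ± 0.46 (p = 0.043, n = 14), SLC27A5, which couples bile acids to coenzyme A, -0.42 ± 0.29, and SLC51A, part of the basolateral bile acid exporter, 0.85 ± 0.54. For SLC51A the difference was -0.40 in E2T over CO and 2.10 in E2P4T over P4T, and the interaction had an adjusted p = 0.999 (limma).

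Energy metabolism lay on the higher side. In oxidative phosphorylation, the subunits of the respiratory chain and the ATP synthase, 68 of 73 measured genes were higher (median 0.22), and 9 of them (12.3% of the list) had p under 0.05, against 1.51% higher over all genes. NDUFB3 and NDUFC1, subunits of complex I, differed by 0.36 ± 0.14 (p = 0.012, n = 14) and 0.44 ± 0.18 (p = 0.0205), and ATP5MC3, a subunit of the ATP synthase rotor, by 0.50 ± 0.21 (p = 0.0256). NDUFB3 had 12.45 to 13.34 (median 13.05) with estradiol and 11.82 to 13.01 (median 12.79) without, with E2P4T number 5 the highest array and P4T number 4 the lowest. With 26 arrays 55 of 73 were higher (median 0.08), 4 with p under 0.05, and the median was 0.22 in E2T over CO and -0.07 in E2P4T over P4T (0.22 and 0.20 with 28 arrays). These genes are among the brighter ones on the array, with a median log2 signal of 12.87 against 9.37 over all genes, and the part of signal level in this shift was not tested.

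In fatty acid oxidation and ketogenesis 13 of 19 genes were higher (median 0.13) and none had p under 0.05. HADHB, the beta subunit of the trifunctional protein, differed by 0.35 ± 0.21, ETFA, which passes electrons on from acyl-CoA dehydrogenases, by 0.33 ± 0.21 and CPT2, the inner carnitine palmitoyltransferase, by 0.28 ± 0.21. In glucose metabolism 15 of 22 were higher (median 0.10). LDHA, a lactate dehydrogenase subunit, differed by 0.46 ± 0.19 (p = 0.0196, n = 14), and each of the 14 arrays with estradiol lay above the mean of its own comparison group. Its other bright probe sets, at mean log2 signals of 11.67 and 11.11, gave 0.10 ± 0.15 and -0.12 ± 0.26. FBP1, the fructose bisphosphatase of gluconeogenesis, differed by 0.96 ± 0.46 (p = 0.042, n = 14), and PGK1, the phosphoglycerate kinase, by 0.33 ± 0.16. With 26 arrays LDHA had 0.28 and FBP1 0.80, and neither had p under 0.05.

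Genes of secreted hepatocyte proteins were on the lower side. Of 30 liver plasma proteins that are known to respond to estrogens, all 30 were lower (median -0.45), none with p under 0.05. With 26 arrays 20 of 30 were lower (median -0.09, and 0.01 with quantile normalization added), and without E2P4T number 5 alone the median was -0.05. Of the 30 genes 1 had p under 0.05 with 26 arrays, against 3.86% lower over all genes. It was SERPINA6, beyond the named genes, at -0.40 (p = 0.0443, n = 13, limma). TF, the iron carrier transferrin, had -0.59 ± 0.36 (-0.18 with 26 arrays), and PROC, the anticoagulant protein C, had -0.71 ± 0.41 (-0.19). The hepatocyte markers share members with this list, among them TF, so both are not independent. Of these 21 markers 20 were lower (median -0.49), and 17 of 21 with 26 arrays (median -0.13, and 0.02 with quantile normalization added). SERPINA1 (-0.49 and -0.14) and APOH (-0.53 and -0.14) were among them. On the 26 arrays the mean of the 21 markers was 15.46 ± 0.17 (SD, n = 13) with estradiol and 15.53 ± 0.15 (n = 13) without. In bulk tissue any difference in the number of hepatocytes cannot be told apart from a difference in RNA per hepatocyte.

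HP, haptoglobin, which binds free haemoglobin and is a main acute phase protein of cattle, had the largest difference among the named genes. Its log2 signals were 7.69 to 16.61 (median 10.04) with estradiol and 8.62 to 16.79 (median 11.90) without, a difference of -1.76 ± 0.87 (p = 0.0518, n = 14). The SD within a group was 1.78 to 3.00, and E2P4T number 2 at 16.61 stood above the next array of its group at 10.40. Of 19 acute phase proteins 17 were lower (median -0.59), 2 of them with p under 0.05 (10.5% of the list, against 3% lower over all genes). These were ITIH3, a serum inhibitor that binds hyaluronan, with -0.75 ± 0.31 (p = 0.0224, n = 14), and the serum amyloid SAA3 with -0.79 ± 0.38 (p = 0.0461). With 26 arrays 16 of 19 were lower (median -0.20, and -0.08 with quantile normalization added), and the median was -0.39 in E2T over CO and -0.01 in E2P4T over P4T. This list shares members with the hepatocyte markers, among them HPX, and with the plasma proteins, among them HP, so these lists are not independent. The part of the hepatocyte markers in the acute phase list was not tested. On those 26 arrays ITIH3 had -0.38 (p = 0.0303, n = 13) and SAA3 -0.45.

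**Figure D5:**
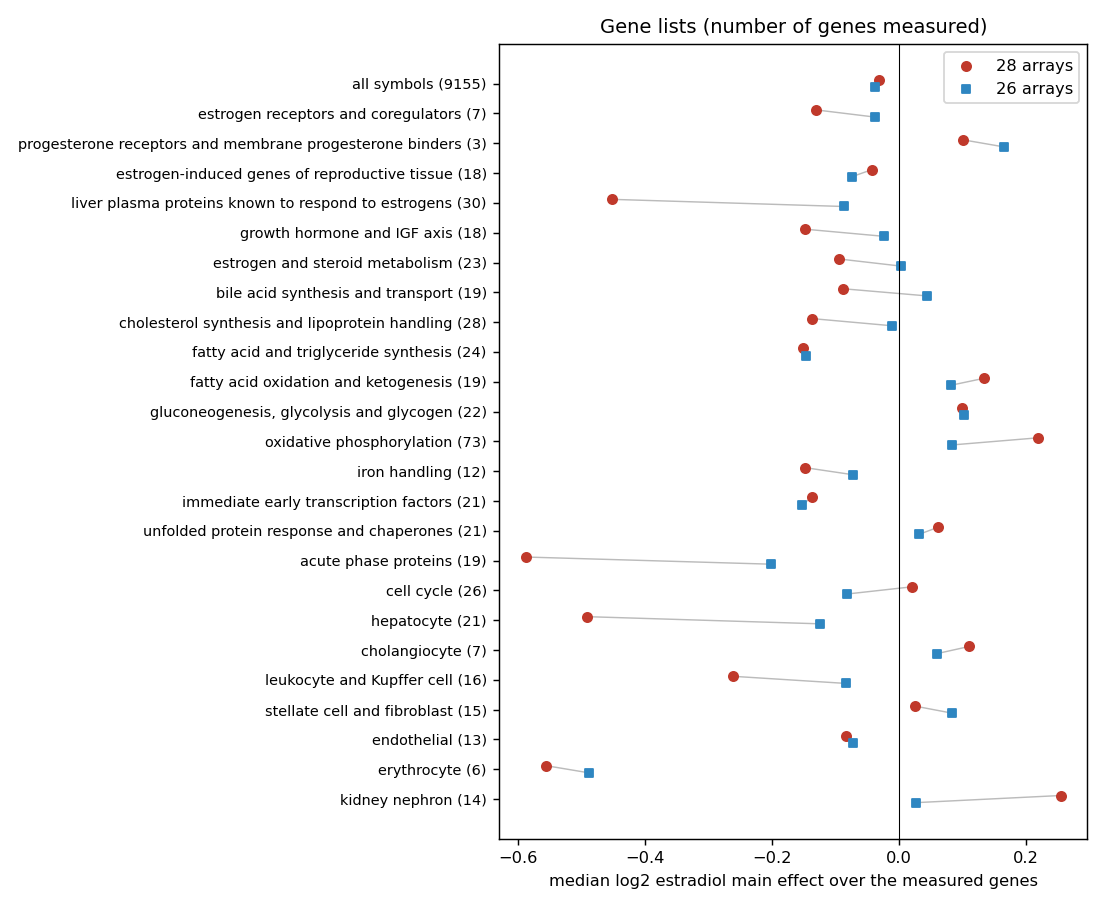
Median log2 estradiol main effect (horizontal axis) over the measured genes of each list and over all genes with a symbol, with the number of genes in parentheses, for 28 arrays (circles) and 26 arrays (squares). Plasma proteins (-0.45 and -0.09), acute phase proteins (-0.59 and -0.20) and hepatocyte markers (-0.49 and -0.13) shift most between both sets, and fatty acid synthesis (-0.15 and -0.15) hardly at all.

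Of the 24 list medians 13 had the same sign in the 36 alternatives run for them. The 11 whose sign turned in some alternative were plasma proteins, steroid metabolism, bile acids, cholesterol, estrogen-induced genes of reproductive tissue, iron handling, chaperones, cell cycle, hepatocytes, endothelium and kidney nephron.

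The remaining pathways are given with their members of smallest p. Steroid metabolism had 15 of 23 genes lower (median -0.09, and 0.00 with 26 arrays). The hydroxysteroid dehydrogenase AKR1C4 had -0.58 ± 0.35, the sulfotransferase SULT1A1 -0.40 ± 0.33 and HSD17B6 -0.53 ± 0.50. Over the 26 arrays these were -0.18, -0.07 and -0.08. Of 21 immediate early transcription factors 14 were lower with 28 and with 26 arrays (median -0.14 and -0.15), with JUNB alone at p under 0.05 (4.76% of the list, against 3% lower over all genes), FOSL1 at -0.87 ± 0.46 and the matrix protein CCN1 at -0.85 ± 0.47. Chaperones and the unfolded protein response had 13 of 21 higher (median 0.06), while SDF2L1 and DNAJB11, both residents of the endoplasmic reticulum, had -0.44 ± 0.25 and -0.44 ± 0.26, and p of 0.0128 and 0.0401 with 26 arrays. TRIB3, a pseudokinase induced by stress, had -0.38 ± 0.27, and -0.05 with 26 arrays. Iron handling had 8 of 12 lower (median -0.15). HPX, which carries heme, was at -0.59 ± 0.39 and ACO1, the cytosolic aconitase that senses iron, at 0.20 ± 0.14. Over the 26 arrays HPX had -0.20 and ACO1 0.10. In the cell cycle list 14 of 26 were higher (median 0.02, and -0.08 with 26 arrays). MCM3 and MCM4 of the replicative helicase had -0.44 ± 0.20 (p = 0.0338, n = 14) and -0.26 ± 0.16, with the kinase CDK2 at -0.26 ± 0.17. A dimmer probe set of MCM3 gave 0.08 ± 0.53.

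Markers of other cells in the biopsy were measured in the same way. Of 16 leukocyte and Kupffer cell genes 14 were lower (median -0.26, and -0.08 with 26 arrays), with the T cell gene CD3D at -0.35 ± 0.16 (p = 0.0432, n = 14), the integrin ITGB2 at -0.61 ± 0.39 and the B cell gene CD79A at -0.71 ± 0.48. The mean of these 16 genes ranged from 7.71 to 10.63 with estradiol and from 9.92 to 11 without. The erythrocyte markers were dim, and all 6 were lower (median -0.56, and -0.49 with 26 arrays), with EPB42 at -1.32 ± 0.56 (p = 0.0239, n = 14), ALAS2 at -0.76 ± 0.59 and SLC4A1 at -0.71 ± 0.56. Their mean ranged from 4.41 to 6.83 with estradiol and from 4.60 to 7.32 without, and its part in the other results was not tested.

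Fibroblast and stellate cell markers had 10 of 15 genes higher (median 0.02), with DCN at 0.49 ± 0.27, VIM at 0.27 ± 0.16 and LUM at 0.40 ± 0.27. Of 13 endothelial markers 9 were lower (median -0.08), with STAB1 at -0.46 ± 0.23, EGFL7 at -0.39 ± 0.26 and CLEC4G at -0.74 ± 0.50. These 3 genes had -0.26, -0.36 and -0.27 with 26 arrays. Bile duct markers had 4 of 7 higher (median 0.11). EPCAM, SPP1 and KRT19 had 0.56 ± 0.36, 0.93 ± 0.89 and 0.42 ± 0.41, and the highest array in each was E2P4T number 5. Over the 26 arrays they had 0.33, 0.18 and 0.17. Kidney nephron markers had 12 of 14 higher (median 0.25) with 28 arrays and 8 of 14 (median 0.03) with 26. SLC12A3 and AQP1 had 0.92 ± 0.57 and 0.39 ± 0.33, with highest arrays of 11.70 and 14.23, and 0.59 and 0.02 with 26 arrays. The dim SLC12A1 had -1.30 ± 0.47 (p = 0.00946, n = 14), and -1.29 with 26 arrays. A dimmer probe set of SLC12A1 gave -0.08 ± 0.72 over 28 arrays.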

How the data were processed

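The authors prepared biotin-labelled cRNA from poly(A) RNA of each biopsy, hybridized it to Bovine GeneChips of Affymetrix and deposited intensities computed with MAS5, on a linear scale and without detection calls. The trimmed mean of each array (2% cut at each end) was checked and lay between 1000.2 and 1000.4. The table holds 24128 probe sets, of which 112 are controls. Of the 24016 tested, 13292 carried exactly 1 gene symbol in the array annotation, 86 several and 10638 none.

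The log2 of the intensity was analysed as deposited, with no normalization added. Estradiol and progesterone were fitted as additive terms in R 4.3.3 with limma 3.58.1 (lmFit, and eBayes with a variance trend), and p-values were adjusted over 24016 probe sets (Benjamini-Hochberg, threshold 0.05). A fit with 1 mean per group gave E2T over CO, E2P4T over P4T and the interaction. The study's mixed model with cow and period was not run, because the labels give neither. The probe set of highest mean stood for a gene. The code was tested on simulated data.

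Named genes were up to 10 per direction by p (p under 0.01, signal in the upper part, same sign in both comparisons, p under 0.05 over 26 arrays), the 3 members of smallest p in each of 24 lists (17 pathways and 7 sets of cell markers), and 8 receptors and targets. The members, lists and comparisons were chosen with earlier results of these data known. Alternatives were the 26 arrays, leaving out each array, quantile normalization, median centring, log2 of the signal plus 50, filters on dim probe sets, no variance trend, array weights, a replicate block, the fit of 4 groups and the mean over the probe sets of a gene. The number of arrays limits the precision. No sequences are printed here.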

Additional observations from a re-analysis of the deposited data

Results flagged for a closer look

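Within the groups of 7 arrays, 26 values of the 180 sets of 7 examined lay far from the other arrays of their group by Dixon's criterion, which chance alone meets in about 1 of 20 sets. Most came from E2P4T number 5 (12 values) and P4T number 4 (6 values).

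On E2P4T number 5 the means of cell markers stood apart for hepatocytes (9.92, next 15.18), leukocytes and Kupffer cells (7.71, next 10.02), bile duct cells (10.81, next 7.77) and kidney nephron (10.49, next 6.66), as did the hybridisation spikes (18.44, next 15.07). AGT (9.30), CYP7A1 (9.23), GHR (4.64), PMVK (9.88) and CARS2 (9.46) were the lowest of their group there, while PGR (8.81) and PRRC2A (10.82) were the highest. On P4T number 4 the spikes were at 17.49 (next 14.51) and the nephron markers at 7.37 (next 6.41), IGF1 (10.59) and SH3D21 (11.73) were the highest of their group, and IGFBP2 (9.80) and NDUFB3 (11.82) the lowest.

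On E2P4T number 2, HP was at 16.61 (next 10.40) and PPIA at 10.88 (next 11.96). E2T number 3 was lowest for PPIA (11.10, next 12.01) and for leukocyte markers (9.68, next 10.21), E2T number 2 for endothelial markers (8.27, next 8.88) and E2T number 6 for PMVK (10.83, next 11.36). P4T number 1 was lowest for GHR (7.16, next 8.95), and CO number 3 was highest for the spikes (16.45, next 14.60).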

How the results depend on the processing

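The count of probe sets with an adjusted p under 0.05 was 0 in every alternative but 1, and also with any single array left out. The exception was chosen after seeing the data: the replicate block without E2P4T number 5 and P4T number 4 gave 1, the probe set without a symbol described above (1.03 ± 0.17, SE, adjusted p = 0.034, limma). Of 94 named genes 81 kept their direction in all 41 alternatives, and their smallest adjusted p was 0.272.

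The number of probe sets with p under 0.01 and the fold threshold (157, with 42 higher and 115 lower) was 252 (204 lower) without both arrays, 97 (62 lower) among the 18013 probe sets of highest maximum signal, 61 (32 lower) among the 12008 of highest mean signal, 422 (97 higher, 325 lower) with array weights, and 328 (84 higher, 244 lower) with the replicate block without both arrays. The higher ones were 74 after quantile normalization (82 lower), 93 after quantile normalization without both arrays, also chosen after seeing the data, and 66 with the replicate block (196 in all). Leaving out 1 array gave 101 (E2T number 2) to 355 (E2P4T number 5), 236 without CO number 6 and 239 without E2T number 3. The higher ones were 26 (without E2T number 2) to 93 (without CO number 6) and the lower ones 68 (without P4T number 4) to 299 (without E2P4T number 5). Probe sets with p under 0.05 (1041) numbered 491 among the 12008 brightest, 2084 with array weights, 1700 with the replicate block without both arrays, and 755 (without P4T number 4) to 1928 (without E2P4T number 5) with 1 array left out. Both signal filters test fewer probe sets.

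The share with the same direction in both comparisons (52.39%) was 50.82% without both arrays, 49.15% after median centring, 51.53% with 50 added to the signal, 53.51% among the 18013 and 56.11% among the 12008 brightest, 51.50% after quantile normalization without both arrays, and 42.57% (without P4T number 4) to 61.08% (without E2P4T number 5) with 1 array left out. Interaction probe sets with p under 0.01 (134) numbered 64 and 25 with the signal filters, 331 with array weights, 212 with the replicate block without both arrays, and 101 (without CO number 3) to 290 (without P4T number 4) with 1 array left out, 235 without E2T number 3.

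The replicate numbers were not taken to pair the arrays, since the labels do not say that they do and not every pair correlated above 0.1. Deviations of arrays with the same number correlated at a mean of 0.034, those with different numbers at -0.003, the lowest pair was at -0.192, and 10 of 28 arrays were closest to their own number. Number 6 had the highest mean, 0.144, with a lowest pair of 0.091. The count of arrays closest to their own number was not set against the count from unrelated numbers. Whether some numbers stand for the same cow was not tested. With the replicate block 1210 probe sets had p under 0.05.

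Of the genes that turned sign in an alternative, ATP6V1A had passed p under 0.01 and the fold threshold, and the others had an unadjusted p above 0.05. Without both arrays GHR was at 0.27, CYP7A1 at 0.08, AGT at 0.03 and FOXA3 at 0.20. With the replicate block added these were 0.31, 0.09, 0.07 and 0.17, and with quantile normalization added 0.29, 0.05, 0.04 and 0.23, with ESR2 at 0.09, SULT1A1 at 0.02, HSD17B6 at 0.01, SERPINA1 at 0.02 and APOH at 0.02. ESR2 was at 0.09 after quantile normalization, GHR at 0.05 and IGF1 at 0.03 after median centring, GHR at 0.00 with 50 added, and GHR at 0.28 and FOXA3 at 0.10 with array weights. The mean over probe sets gave ATP6V1A -0.10, IGF1 0.15 and NCOR1 0.17. With 1 array left out AGT ranged from -0.39 to 0.07, CYP7A1 from -0.30 to 0.10, ESR2 from -0.31 to 0.20, FOXA3 from -0.34 to 0.22, GHR from -0.26 to 0.28, HSD17B6 from -0.65 to 0.01 and SULT1E1 from -0.02 to 0.30. The cause of these turns was not tested. Signal over background could not be judged without detection calls.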
